A study of Mus musculus with 32 samples.

Results

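The genes described here are the mouse sugar and monocarboxylate solute carriers, chosen by symbol: every gene whose name begins with Slc2a, Slc5a, Slc16a or Slc37a followed by a number. The rule found 44 genes among the 55806 gene identifiers in the tables. Of these, 43 encode proteins, and the last, Slc2a4rg-ps, is a transcribed pseudogene that carries the letters of the rule but is not a carrier. It is counted with the carriers tested below, and it passed a test only in whole Foxd1 kidneys. In the comparisons below, 42 of the 44 passed the filter on low counts at least once, while Slc2a7 and Slc5a4a never did.

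RNA was sequenced from embryonic mouse kidneys that express a mutant form of ENL, a reader of acylated histones that promotes transcription elongation and is mutated in a share of Wilms tumors. The mutant alleles T1 (an insertion) and T3 (a small deletion) were knocked into Enl behind a floxed wild type cassette, which Cre removes, and were carried in a single copy. Whole kidneys at E18.5 came from Six2-TGCtg/+;Enl+/+ embryos (ENL WT, 2 libraries), Six2-TGCtg/+;EnlT1/+ embryos (Six2-ENL T1, 2) and Six2-TGCtg/+;EnlT3/+ embryos (Six2-ENL T3, 2), and from Foxd1GC/+;Enl+/+ embryos (3) and Foxd1GC/+;EnlT1/+ embryos (Foxd1-ENL T1, 3). Cells sorted by flow cytometry for a tdTomato reporter that Cre switches on came from the same Six2 genotypes, without T3, at E14.5 (3 ENL WT and 3 T1) and E18.5 (3 and 3), and from the same Foxd1 genotypes at E18.5 (4 and 4). Six2-TGC drives Cre in nephron progenitors, and every Six2 group carries this transgene, controls included. Foxd1GC drives Cre in stromal progenitors from the Foxd1 locus, and its insertion inactivates that copy of Foxd1, so that all Foxd1 groups, controls included, have a single working copy. The sources used here do not say whether libraries of a group came from separate embryos, so the p values measure the spread between these libraries.

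The carriers fall into 4 families. The Slc2a genes encode the facilitative GLUT carriers, which let glucose, fructose, urate or inositol run down their gradients. The Slc5a genes encode sodium-coupled carriers: SGLT2 (Slc5a2) and SGLT1 (Slc5a1) take glucose out of the tubule fluid at the brush border of the proximal tubule, SMIT proteins carry inositol, and Slc5a8 and Slc5a12 reclaim lactate and other monocarboxylates. GLUT2 (Slc2a2) then lets the glucose leave the cell on the blood side. The Slc16a genes encode monocarboxylate carriers, of which Slc16a1, Slc16a3, Slc16a7 and Slc16a8 move lactate and pyruvate with protons while others carry aromatic amino acids or creatine. The Slc37a family includes carriers of sugar phosphates in the endoplasmic reticulum. Of these, Slc37a4 brings glucose 6-phosphate to glucose 6-phosphatase, the last step of glucose production.

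In build mm10, with GENCODE vM21 gene spans, the carriers that recur below lie as follows: Slc5a1 at chr5:33104219-33162870, Slc5a2 at chr7:128265657-128272430, Slc5a8 at chr10:88885992-88929515, Slc5a12 at chr2:110597298-110647779, Slc2a2 at chr3:28697903-28731359, Slc16a4 at chr3:107291230-107312115 and Slc2a12 at chr10:22645011-22704285. Promoter sequence was at hand for 33 of the 44 genes in the RefSeq table for build GRCm38.p6, with 38 annotated starts. The genes with no entry include Slc2a3, Slc2a4, Slc2a4rg-ps, Slc5a2, Slc5a9, Slc5a12, Slc16a5, Slc16a6, Slc16a7 and Slc16a13. The 250 bases before the start of 3 carriers that fell in Six2-ENL T1 kidneys are printed 5′ to 3′ on the strand of the gene, because the effect of T1 on these 3 also differed between the Cre drivers. Slc37a4, which has 3 annotated starts, met the same condition and is not printed. None of the marked motifs overlapped another. Capitals mark any of 3 motifs searched on both strands: AAAGTCC (the core of a site of HNF4), CACGTG (the E-box) and GGGCGG (the GC box).

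Slc5a1 (chr5:33103969-33104218, plus strand): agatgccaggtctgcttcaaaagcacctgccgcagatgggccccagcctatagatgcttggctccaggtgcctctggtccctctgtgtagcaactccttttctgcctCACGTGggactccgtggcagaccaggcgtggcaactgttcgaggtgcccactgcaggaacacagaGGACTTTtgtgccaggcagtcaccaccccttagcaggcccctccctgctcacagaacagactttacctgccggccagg
Slc5a8 (chr10:88885742-88885991, plus strand): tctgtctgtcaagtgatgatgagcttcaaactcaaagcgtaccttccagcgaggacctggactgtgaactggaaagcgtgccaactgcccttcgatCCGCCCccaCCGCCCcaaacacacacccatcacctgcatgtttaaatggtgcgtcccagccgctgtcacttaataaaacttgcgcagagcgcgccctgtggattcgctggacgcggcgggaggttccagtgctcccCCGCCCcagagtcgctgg
Slc16a4 (chr3:107290980-107291229, plus strand): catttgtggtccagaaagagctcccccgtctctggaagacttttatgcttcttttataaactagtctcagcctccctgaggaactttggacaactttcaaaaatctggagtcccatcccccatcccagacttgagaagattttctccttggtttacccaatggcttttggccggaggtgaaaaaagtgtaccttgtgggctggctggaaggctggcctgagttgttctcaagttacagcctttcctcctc

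The Slc5a1 stretch holds the HNF4 core, read on its other strand, and an E-box. Slc5a8 holds 3 GC boxes, and Slc16a4 holds none of the 3 motifs. Across the 38 windows of the carriers, AAAGTCC occurred in 2 (5.26%, against 3.58% of all 32851 promoter windows of the same length), CACGTG in 4 (10.5%, against 6.02%) and GGGCGG in 18 (47.4%, against 32.7%). None of these letters was shown to be bound here.

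Total counts ran from 106005614 to 157266455 per library in whole Six2 kidneys, from 67137194 to 79343015 in whole Foxd1 kidneys, from 76510702 to 137888792 in sorted Six2 cells, and from 2557443 to 3508381 in sorted Foxd1 cells, where 22 carriers could be tested. Values are given as CPM, which are counts scaled to a common library size with TMM factors within each table, and levels of different genes are compared only after division by exon length. The ENL WT whole kidneys of the Six2 series differed from each other: the summed level of 5 skeletal muscle genes was 4.79 CPM in library 1 and 49.9 in library 2, and library 1 had the Y-linked Ddx3y where library 2 had Xist. Both T1 libraries of that series had Ddx3y and no more than 0.159 CPM of Xist, and both T3 libraries had Xist and 0 CPM of Ddx3y, so allele and sex cannot be told apart between T1 and T3. Nor was sex matched between either mutant group and the mixed ENL WT pair. All whole Foxd1 kidneys had Xist and 0 CPM of Ddx3y, but Xist was at 819.2 to 977 CPM in ENL WT and 439.8 to 541.3 with T1, with no overlap. All sorted Foxd1 libraries had Ddx3y. The sorted Six2 groups each held libraries with Ddx3y and libraries without it. The 5 stroma markers summed to 3618 to 4837 CPM in sorted Foxd1 cells against 185.5 to 1015 in sorted Six2 cells, and the 5 nephron progenitor markers to 1458 to 1699 CPM in E14.5 Six2 ENL WT cells against 69.74 to 126.7 in Foxd1 cells. In bulk RNA, fewer cells of a type and less RNA per cell cannot be told apart.

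In nephron-lineage cells of ENL WT kidneys, the carriers of the proximal tubule appeared between E14.5 and E18.5. Of 42 carriers tested, 21 rose and 3 fell (edgeR adjusted p under 0.01 and over 2-fold), against 24.8% and 20.6% of all tested genes. The median log2 fold change of the carriers was 1.38, and that of all genes 0.015. All 7 tested sodium-coupled sugar and polyol carriers and both sodium-coupled monocarboxylate carriers were among those that rose. Of these, Slc5a4b, Slc5a10, Slc5a11 and Slc5a12 passed the filter on low counts in this fit only through the E18.5 libraries.

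Slc5a12, the low-affinity lactate carrier of the proximal tubule, stood at 0.0936, 0.0499 and 0 CPM in the E14.5 ENL WT libraries and at 10.6, 14.1 and 10.1 at E18.5. The groups were far apart, with a log2 fold change of 7.89 ± 0.47 (here and below ± is the SE; edgeR adjusted p = 1.17e-09). Slc5a8, its high-affinity partner, went from 1.23, 0.585 and 0.321 to 30.9, 33.1 and 25.7 CPM (log2 fold change 5.39 ± 0.35, edgeR adjusted p = 3.66e-09). SGLT1 (Slc5a1) went from 0.0936, 0.0499 and 0.489 to 12.3, 14.3 and 11.5 CPM (log2 fold change 5.92 ± 0.57, edgeR adjusted p = 2.9e-07). SGLT2 (Slc5a2) started at 0.320, 0.328 and 0.336 CPM, at close to the same level in each library, and reached 4.37, 5.21 and 3.92 (log2 fold change 3.77 ± 0.31, edgeR adjusted p = 4.52e-08). The other sodium-coupled sugar carriers, Slc5a9, Slc5a10 and Slc5a11, rose by log2 fold changes of 5.22, 4.32 and 5.97. These rest on few reads in the E14.5 ENL WT libraries: 1, 14 and 22 for Slc5a9, 4, 5 and 7 for Slc5a10, and 4, 8 and 0 for Slc5a11. Slc5a4b also passed, on 2 reads in all at E14.5, and its call was lost without E14.5 ENL WT library 2 or 3, E18.5 ENL WT library 1 or 3, or E18.5 T1 library 1 or 3. Leaving out 1 E14.5 ENL WT library moved the log2 fold change of SGLT1 to 7.45 (library 3), Slc5a9 to 5.95 (library 3), Slc5a11 to 6.86 (library 2), Slc5a12 to 8.75 (library 1) and Slc5a8 to 6.03 (library 1). In the same cells all 5 proximal tubule markers rose, from a summed 3.532 to 7.658 CPM to 1281 to 1742, and all 5 podocyte markers rose, while the summed nephron progenitor markers went from 1458 to 1699 CPM to 421.9 to 547, and their part in the carrier values was not tested.

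Exit and intracellular carriers followed several courses. GLUT2 (Slc2a2) rose from 0.195, 0.735 and 2.35 CPM to 26.0, 34.3 and 24.3 (log2 fold change 4.69 ± 0.58, edgeR adjusted p = 4.18e-06), with a wide spread among the E14.5 libraries and a value of 5.90 without library 3 of them. The inositol carrier Slc5a3 rose from 54.4, 38.2 and 37.4 CPM to 264, 310.2 and 279.7 (log2 fold change 2.71 ± 0.13, edgeR adjusted p = 1.23e-10). Slc16a10, a carrier of aromatic amino acids, rose from 2.05, 2.48 and 3.90 CPM to 48.4, 62.1 and 53.2 (log2 fold change 4.28 ± 0.19, edgeR adjusted p = 5.73e-11). The 3 that fell were the insulin-responsive glucose carrier Slc2a4 (-1.43 ± 0.15), Slc2a8 (-1.83 ± 0.13) and Slc2a10 (-1.58 ± 0.12). The lactate carrier Slc16a1, which per kilobase was the most abundant of the 44 genes in these cells at both stages (42.6 ± 0.523 and 58.8 ± 7.81 CPM per kb, mean ± SD, n = 3), changed by a log2 fold change of 0.47 ± 0.0814, under the 2-fold threshold. None of the Slc37a genes passed. The rise of the lactate carrier Slc16a8 (log2 fold change 1.76 ± 0.49, edgeR adjusted p = 0.00482) was lost without E14.5 ENL WT library 1 or E18.5 ENL WT library 1 or 2, and in a fit of the 6 ENL WT libraries alone.

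Whole E18.5 kidneys with mutant ENL in the nephron lineage had lower levels of many sugar and lactate carriers. In Six2-ENL T1, 16 of 42 tested carriers fell and 2 rose (edgeR adjusted p under 0.05 and over 1.5-fold), against 4.88% and 2.88% of all tested genes. In Six2-ENL T3, 17 fell and 3 rose, against 5.28% and 4.34% of all genes. The median log2 fold change of the 42 was -0.37 with T1 and -0.36 with T3, beside all-gene medians of -0.013 and -0.002. The 16 that fell with T1 all fell with T3, a comparison that uses the same ENL WT libraries, and Slc2a5 was added.

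**Figure D1:**
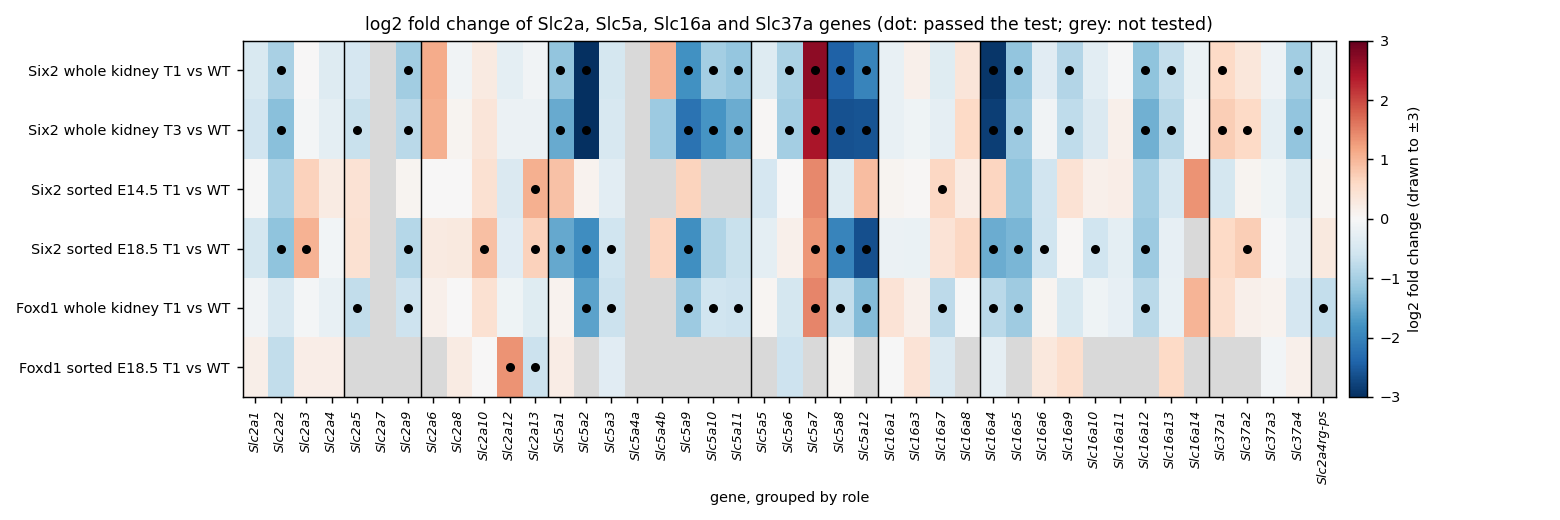
Log2 fold change of 43 of the genes (columns, in role groups split by lines) in 6 comparisons of mutant with ENL WT libraries (rows), drawn from blue (lower) to red (higher) with the colour scale ending at 3 in either direction. Dots mark genes that passed the test and grey cells were not tested; dots lie thickest over the sodium-coupled carriers in the whole Six2 kidneys, where 16 carriers fell with T1 and 17 with T3, and are rare in E14.5 cells and sorted Foxd1 cells (2).

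Among the sodium-coupled sugar carriers, 5 of 7 tested fell with each allele. SGLT2 (Slc5a2) was 22.9 and 6.06 CPM in the ENL WT kidneys, 0.935 and 1.26 with T1 and 0.458 and 1.22 with T3. Every mutant library lay under both controls, which themselves differed widely. The log2 fold change was -3.73 ± 0.66 with T1 (edgeR adjusted p = 0.00859) and -4.10 ± 0.68 with T3 (edgeR adjusted p = 0.00567). Without ENL WT library 1 the T1 value was -2.47 and without library 2 it was -4.37, with edgeR adjusted p values of 0.00658 and 0.00025. The T3 value was -2.84 without ENL WT library 1 and -4.97 without T3 library 2, and it passed in both. Without T1 library 1 or 2, with the lone T1 library taken to vary like the other groups, the call was lost (edgeR adjusted p = 0.0796 and 0.0656). Of the exon length of Slc5a2, 20.6% is shared with the gene BC017158, and reads were counted without strand.

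SGLT1 (Slc5a1) was 65.1 and 58.9 CPM in the controls, 24.3 and 29.9 with T1 and 24.4 and 18.9 with T3 (log2 fold change -1.19 ± 0.14, edgeR adjusted p = 0.00141 for T1, and -1.52 ± 0.14 for T3). Slc5a9, a mannose and fructose carrier, was 13.5 and 9.66 CPM in the controls against 3.24 and 3.33 and 2.16 and 2.80 (log2 fold change -1.82 ± 0.19, edgeR adjusted p = 0.000784 for T1). Slc5a11, an inositol carrier, was 10.7 and 8.71 CPM in the controls, 3.72 and 5.01 with T1 and 3.70 and 3.22 with T3 (-1.16 ± 0.17 and -1.49 ± 0.18). In all of these the mutant libraries lay under the controls. Slc5a10, which shares 16.8% of its exon length with another gene, was 5.00 and 5.52 CPM in the controls, 2.14 and 3.07 with T1 and 1.77 and 1.29 with T3 (-1.02 ± 0.22 and -1.78 ± 0.22), and the T1 call was lost without T1 library 1 (-0.76, edgeR adjusted p = 0.141). The inositol carrier Slc5a3 stayed inside the 1.5-fold threshold (log2 fold change -0.52 ± 0.11, edgeR adjusted p = 0.0172 for T1).

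Both sodium-coupled monocarboxylate carriers fell. Slc5a8, which per kilobase came after only Slc2a1 in the ENL WT kidneys (31.4 ± 6.31 and 36.9 ± 10.6 CPM per kb, mean ± SD, n = 2), was 191 and 144 CPM in the controls, 28.6 and 33.7 with T1 and 28.2 and 26.9 with T3. The mutants stood well below the controls, with log2 fold changes of -2.43 ± 0.14 (edgeR adjusted p = 7.33e-05) and -2.60 ± 0.14 (edgeR adjusted p = 4.51e-05). Slc5a12 was 47.7 and 17.7 CPM in the controls, 7.30 and 9.42 with T1 and 5.06 and 5.79 with T3, again with controls that differ (log2 fold change -1.97 ± 0.40, edgeR adjusted p = 0.0157 for T1). Its T1 value was -1.08 without ENL WT library 1 and -2.49 without library 2, and the call was lost without T1 library 1 (-1.77, edgeR adjusted p = 0.12) or 2 (-2.15, edgeR adjusted p = 0.0796).

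**Figure D2:**
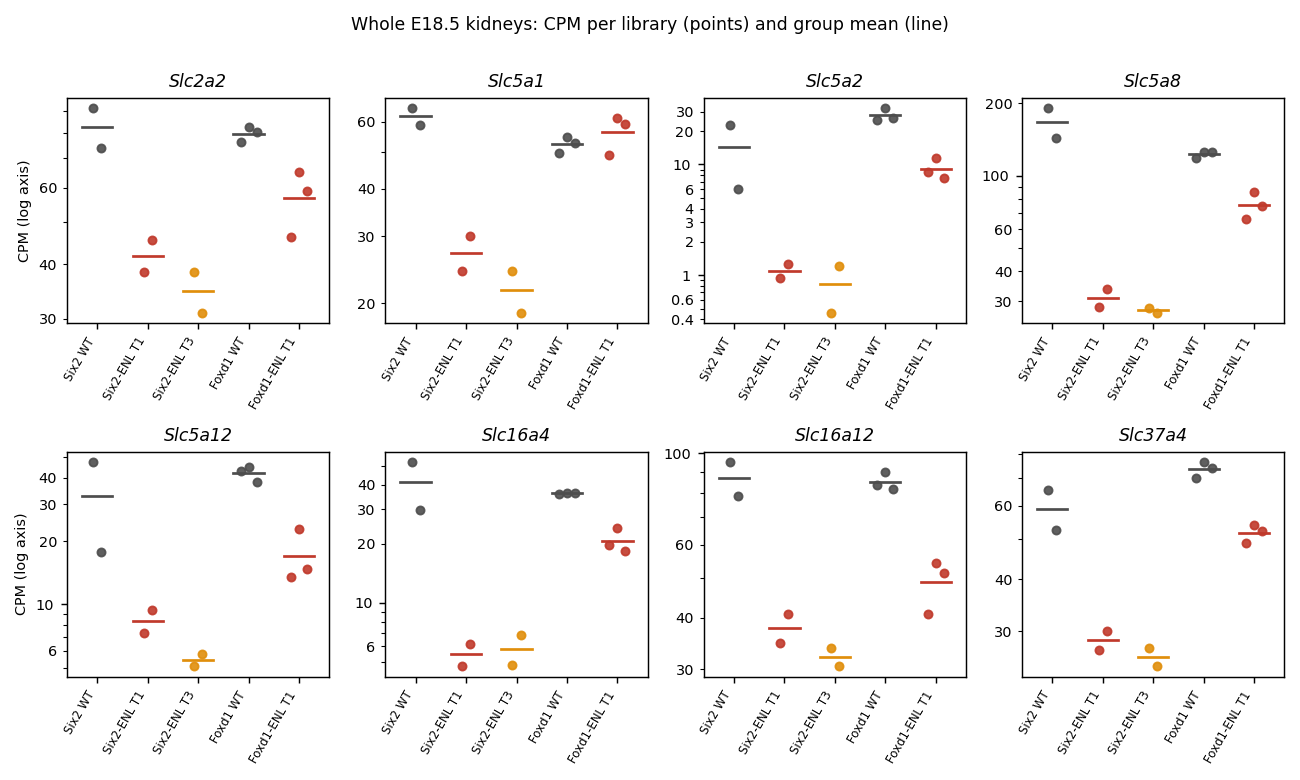
CPM (log axes) of 8 carriers in each whole-kidney library, with points for libraries and a line for the group mean; Six2 groups have 2 libraries and Foxd1 groups 3. Both Six2 mutants lie below their ENL WT libraries in every panel, the ENL WT pair is widest for Slc5a2 (22.9 and 6.06 CPM), and the Foxd1-ENL T1 group means lie closer to their controls, with libraries overlapping them for Slc5a1.

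Among the facilitative carriers, GLUT2 (Slc2a2) was 91.3 and 74.1 CPM in the controls, 38.3 and 45.5 with T1 and 38.3 and 30.9 with T3 (log2 fold change -0.98 ± 0.14, edgeR adjusted p = 0.0031 for T1). Slc2a9, the urate carrier, was 8.18 and 7.62 CPM against 3.84 and 3.82 and 4.74 and 4.35 (log2 fold change -1.04 ± 0.11, edgeR adjusted p = 0.000788 for T1). The fructose carrier Slc2a5 passed with T3 only (log2 fold change -0.68 ± 0.14, edgeR adjusted p = 0.013), at -0.51 ± 0.13 with T1, and the difference between the alleles did not pass (-0.17 ± 0.14, edgeR adjusted p = 0.828). Its T3 call was lost without T3 library 1 or 2 (edgeR adjusted p = 0.0574 and 0.0811). GLUT1 (Slc2a1), the widespread basal glucose carrier, was 103 and 156 CPM in the controls, 89.8 and 98.6 with T1 and 97.4 and 76.8 with T3, which did not pass (edgeR adjusted p = 0.166 and 0.0776). None of the 5 class III carriers passed with either allele.

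None of the 4 proton-coupled lactate carriers passed with either allele, while 5 of the 10 other Slc16a genes fell with each. The lactate carrier Slc16a1 was 74.1 and 82.8 CPM in the controls, 67.0 and 66.8 with T1 and 62.6 and 71.8 with T3 (log2 fold change -0.23 ± 0.0817, edgeR adjusted p = 0.118 for T1), Slc16a7 56.7 and 75.2, 49.5 and 52.8 and 57.6 and 52.0, and Slc16a3, the lactate exporter of glycolytic cells, 23.4 and 46.1, 37.3 and 40.2 and 31.2 and 31.9. The groups lay close together or overlapped. Slc16a4, whose substrate is not well defined, was 52.5 and 29.9 CPM in the controls, 4.75 and 6.18 with T1 and 4.82 and 6.85 with T3 (log2 fold change -2.92 ± 0.29, edgeR adjusted p = 0.000653 for T1). The creatine carrier Slc16a12 was 95.4 and 78.7 CPM against 34.7 and 40.9 and 33.8 and 30.5 (log2 fold change -1.20 ± 0.12, edgeR adjusted p = 0.000553 for T1). Slc16a5 (-1.19 ± 0.10), Slc16a9 (-0.88 ± 0.13) and Slc16a13 (-0.72 ± 0.0829) made up the rest. Slc16a9 was 17.0 and 12.9 CPM in the controls, 8.43 and 7.86 with T1 and 8.67 and 8.99 with T3. Slc16a9 shares 23.5% of its exon length with another gene, and its calls were lost without T1 library 2 (edgeR adjusted p = 0.0539) and, for T3, without T3 library 1 (edgeR adjusted p = 0.0532) or ENL WT library 1 (-0.55, inside the fold threshold).

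Slc37a4, the glucose 6-phosphate translocase, was 65.4 and 52.4 CPM in the controls, 27.0 and 30.2 with T1 and 27.5 and 24.7 with T3 (log2 fold change -1.04 ± 0.12, edgeR adjusted p = 0.00109 for T1). The vitamin carrier Slc5a6, which takes up biotin and pantothenate, fell as well (-0.95 ± 0.12 with T1 and -1.02 ± 0.12 with T3). In the other direction stood Slc5a7, the choline carrier of cholinergic nerves, with 0.184 and 0.264 CPM in the controls, 1.21 and 1.71 with T1 and 1.51 and 0.965 with T3. Its log2 fold changes were 2.69 ± 0.34 (edgeR adjusted p = 0.00188) and 2.45 ± 0.34 (edgeR adjusted p = 0.00244), at levels under 2 CPM. The 5 neuron and glia markers summed to 14.52 to 16.77 CPM in ENL WT and 20.08 to 20.41 with T1, 1 of them passing, and their part was not tested. Slc37a1 rose with both alleles, from 2.90 and 2.91 CPM to 4.43 and 4.37 and 5.21 and 4.42 (0.60 ± 0.13 and 0.73 ± 0.13), and Slc37a2 with T3, from 3.40 and 2.94 to 4.77 and 4.77 (0.59 ± 0.14). These calls are thin, since Slc37a1 was lost without T1 library 1 or 2 (edgeR adjusted p = 0.12 and 0.11) and for T3 without T3 library 1 (edgeR adjusted p = 0.0511), and Slc37a2 without ENL WT library 2, T3 library 1 or T3 library 2 (edgeR adjusted p = 0.0576, 0.0906 and 0.0909).

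Markers of several cell types moved in the same kidneys. All 5 proximal tubule markers fell with each allele, their summed level being 2108 to 2334 CPM in ENL WT, 290.5 to 367.5 with T1 and 294.9 to 332.3 with T3, with none at 0. The 5 podocyte markers fell too (795.9 to 919 CPM in ENL WT, 228.2 to 243.3 with T1), and 4 of 5 macrophage markers rose (85.98 to 88.73 CPM in ENL WT, 113.5 to 127.1 with T1). Of 5 loop and distal tubule markers 4 fell (904.8 to 976.9 CPM in ENL WT, 421.2 to 473.3 with T1), as did 4 of 5 nephron progenitor markers (130.9 to 153.4 and 78.97 to 80.47 CPM). The 5 ureteric tree markers summed to 483.4 to 585.5 CPM in ENL WT and 322.1 to 337.6 with T1, 1 of them passing with T1 and 4 with T3. Their part in the fall of the carriers was not tested. Leaving out ENL WT library 2, the one with muscle transcripts, gave 16 carriers that fell and 3 that rose with T1, and 18 and 3 with T3.

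The direct test of T3 against T1 passed for none of the 42 carriers, with 0.00418% of all genes (1 of 23931) called. At an unadjusted p under 0.05 in edgeR, 1 carrier was higher and 3 were lower with T3, and the exact test and DESeq2 also called 0. The SGLT2 difference was -0.37 ± 0.69, that of SGLT1 -0.33 ± 0.14, that of Slc5a8 -0.17 ± 0.14 and that of Slc5a12 -0.62 ± 0.40. For Slc5a2 the SE exceeded the difference itself.

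At E14.5, before these carriers had risen, T1 moved few of them in sorted Six2-lineage cells. Of 39 carriers tested, 3 rose and 0 fell, against 4.11% and 2.28% of all genes. At an unadjusted p under 0.05 in edgeR, 5 were lower, and DESeq2 and the exact test each called 1 lower. Among those that rose were the proton inositol carrier Slc2a13 and the pyruvate carrier Slc16a7.

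Slc2a13 was 2.78, 2.40 and 2.47 CPM in ENL WT cells and 5.84, 4.83 and 5.06 in T1 cells (log2 fold change 1.06 ± 0.13, edgeR adjusted p = 0.00179). The T1 libraries all lay above the controls. Slc16a7 rose from 4.64, 3.35 and 3.93 CPM to 5.44, 5.88 and 6.91 (log2 fold change 0.63 ± 0.15, edgeR adjusted p = 0.0315), a call lost without ENL WT library 2 or 3 or any T1 library, where edgeR adjusted p ran up to 0.116. Slc37a4 was lower in all T1 libraries, 30.9, 32.2 and 28.7 CPM against 38.8, 43.3 and 45.0, but by less than 1.5-fold (log2 fold change -0.46 ± 0.075, edgeR adjusted p = 0.00576). Of 5 stroma markers 4 were higher in the T1 cells, with a summed level of 317.6 to 382.7 CPM in ENL WT and 545.3 to 1015 in T1, and 4 of 5 nephron progenitor markers were lower (1458 to 1699 and 761.7 to 950.2 CPM). The podocyte sum was lower (92.45 to 117.2 and 46.4 to 53.5 CPM) and the neuron and glia sum higher (24.04 to 28.6 and 35.43 to 39.71 CPM). Their part in these values was not tested.

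By E18.5, sorted Six2-lineage T1 cells held less RNA of the proximal tubule carriers than ENL WT cells. Of 41 carriers tested, 13 fell and 5 rose, against 5.54% and 6.14% of all genes, with a median log2 fold change of -0.24. Those that fell were GLUT2, the urate carrier Slc2a9, 4 of 7 sodium-coupled sugar and polyol carriers (Slc5a1, Slc5a2, Slc5a3 and Slc5a9), both sodium-coupled monocarboxylate carriers, and Slc16a4, Slc16a5, Slc16a6, Slc16a10 and Slc16a12. Those that rose were Slc2a3, Slc2a10, Slc2a13, Slc5a7 and Slc37a2.

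Slc5a12 was 10.6, 14.1 and 10.1 CPM in the E18.5 ENL WT cells and 1.85, 1.52 and 2.20 in T1 cells (log2 fold change -2.64 ± 0.18, edgeR adjusted p = 2.36e-07). Slc5a8 was 30.9, 33.1 and 25.7 CPM and 8.21, 6.60 and 7.71 (log2 fold change -1.99 ± 0.12, edgeR adjusted p = 9.22e-08). SGLT2 (Slc5a2) was 4.37, 5.21 and 3.92 CPM and 1.55, 0.990 and 1.16 (log2 fold change -1.85 ± 0.21, edgeR adjusted p = 2.88e-05). For these 3 carriers the genotypes were well apart, and each ENL WT library held over 2-fold the level of any T1 library.

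SGLT1 (Slc5a1) was 12.3, 14.3 and 11.5 CPM in ENL WT cells and 4.69, 3.75 and 4.62 in T1 cells (log2 fold change -1.54 ± 0.14, edgeR adjusted p = 2.76e-06), and GLUT2 (Slc2a2) 26.0, 34.3 and 24.3 and 13.4, 10.9 and 12.3 (log2 fold change -1.20 ± 0.13, edgeR adjusted p = 1.8e-05). Slc5a3, which per kilobase came after Slc16a1 and Slc2a1 in these ENL WT cells (26.1 ± 2.17 CPM per kb), was 264, 310.2 and 279.7 CPM and 193, 180.0 and 186 (log2 fold change -0.60 ± 0.0696, edgeR adjusted p = 3.24e-05). Slc16a4 was 9.14, 14.6 and 12.8 CPM and 4.26, 4.20 and 4.49 (log2 fold change -1.49 ± 0.16, edgeR adjusted p = 1.77e-05). GLUT1 (Slc2a1) was also lower in every T1 library, 116, 116 and 112 CPM against 184, 167 and 152, but under the 1.5-fold threshold (log2 fold change -0.54 ± 0.0733, edgeR adjusted p = 0.000138).

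**Figure D3:**
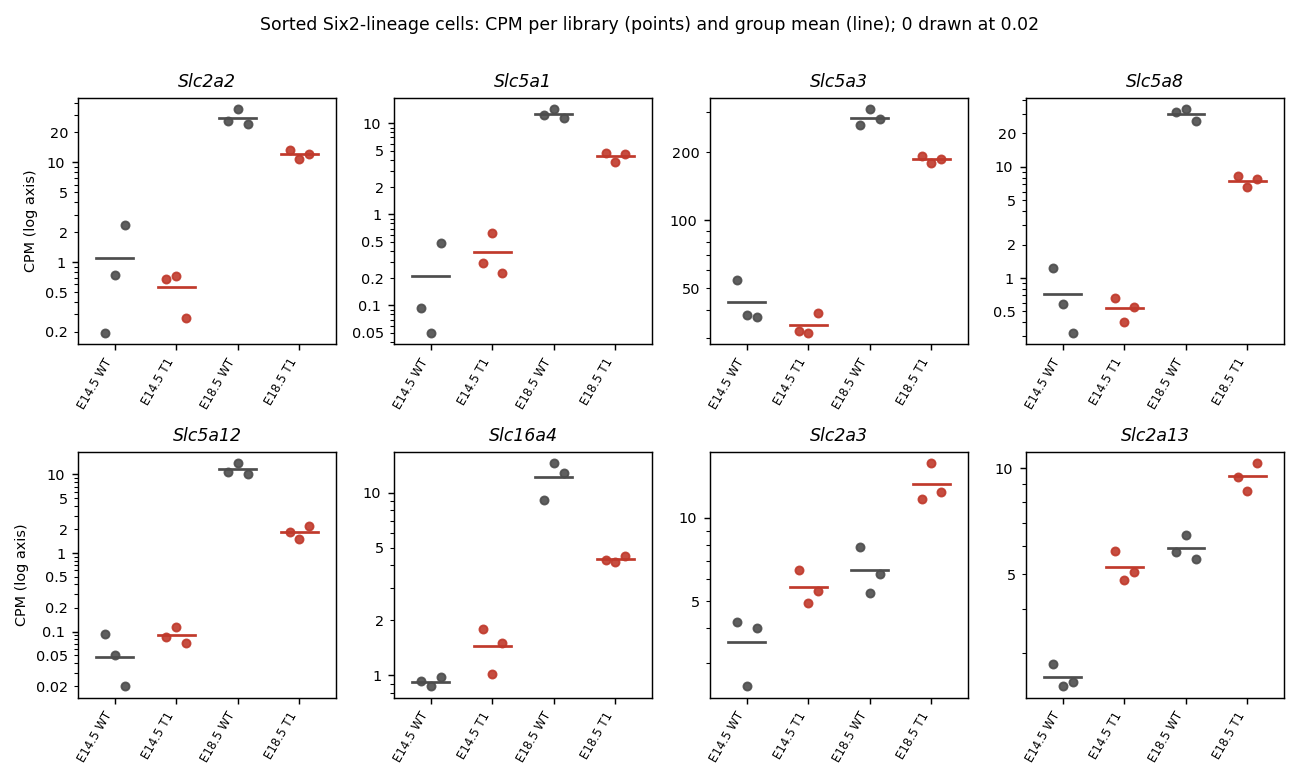
CPM (log axes) of 8 carriers in sorted Six2-lineage cells at E14.5 and E18.5, 3 libraries per group as points with the group mean as a line; a library at 0 CPM is drawn at 0.02. Slc2a2, Slc5a1, Slc5a3, Slc5a8, Slc5a12 and Slc16a4 are higher at E18.5 in both genotypes with T1 below ENL WT at E18.5, while Slc2a3 and Slc2a13 are higher with T1 at both stages, where Slc2a3 passed the test at E18.5 alone.

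Slc2a3, the high-affinity neuronal glucose carrier, was 7.88, 5.38 and 6.26 CPM in ENL WT cells and 11.7, 15.8 and 12.4 in T1 cells (log2 fold change 1.04 ± 0.16, edgeR adjusted p = 0.000384). At E14.5 it was 4.22, 2.47 and 4.00 CPM and 6.51, 4.94 and 5.47, also without overlap, but did not pass (log2 fold change 0.68 ± 0.21, edgeR adjusted p = 0.0743). Slc2a10 was 3.89, 3.73 and 2.97 CPM and 6.58, 6.69 and 6.47 (log2 fold change 0.90 ± 0.15, edgeR adjusted p = 0.000613). Slc2a13 was 5.77, 6.47 and 5.54 CPM and 9.47, 8.63 and 10.4 (log2 fold change 0.69 ± 0.12, edgeR adjusted p = 0.00143). Slc5a7 was 0.215, 0.344 and 0.383 CPM and 0.674, 0.739 and 0.932 (1.32 ± 0.38), and its call was lost without ENL WT library 1 or 2 or T1 library 2 or 3. Slc37a2 (1.38, 1.59 and 2.30 CPM and 2.95, 2.92 and 2.85, 0.74 ± 0.22) was lost without ENL WT library 1 or 2 or any T1 library, and the fall of Slc2a9 (-0.85 ± 0.27) without any ENL WT library or T1 library 2 or 3. The falls of Slc5a3, Slc16a6 and Slc16a10, close to 1.5-fold, were lost without T1 library 2 and without 1 ENL WT library each (library 2, 3 and 2). With counts scaled by library size alone, 9 carriers fell in place of 13: Slc5a3 (-0.51), Slc16a6 (-0.50) and Slc16a10 (-0.50) came inside the fold threshold and Slc2a9 (-0.75, edgeR adjusted p = 0.0723) no longer passed. Slc16a6 shares 23.5% of its exon length with another gene. In a fit of all 12 sorted Six2 libraries the calls of GLUT2 (-1.21, edgeR adjusted p = 0.121), Slc5a9 (-1.85, edgeR adjusted p = 0.0995) and Slc16a5 (-1.38, edgeR adjusted p = 0.0687) were lost too.

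In the same E18.5 libraries the 5 proximal tubule markers fell, from a summed 1281 to 1742 CPM in ENL WT to 424.2 to 446.2 in T1, with none at 0. The 5 podocyte markers fell as well, from 2761 to 3233 CPM to 191.7 to 244.2, as did 4 of 5 nephron progenitor markers, from 421.9 to 547 CPM to 180.7 to 235. All 5 red cell markers rose, from 103.8 to 210.2 CPM to 1550 to 2273, and 4 of 5 macrophage markers rose, from 16.67 to 21.81 CPM to 47.7 to 60.24. Of 5 stroma markers 3 rose and 1 fell, with sums of 185.5 to 298 CPM and 485.6 to 586. The neuron and glia markers, of which 1 of 2 tested rose, summed to 22.46 to 30.45 CPM in ENL WT and 51.4 to 55.3 in T1, in the libraries where Slc2a3 and Slc5a7 were higher. Their part in the carrier values was not tested.

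Whether the T1 effect changed with stage was tested directly in the 12 sorted Six2 libraries. Here and below, effects are compared as signed log2 fold changes, so a higher effect can be a smaller fall. The effect was lower at E18.5 than at E14.5 for 6 of 42 carriers and higher for 0, against 4.22% and 3.94% of all genes. At an unadjusted p under 0.05 in edgeR, 2 carriers were higher, and DESeq2 called 2. The largest of these differences was that of Slc5a12 (log2 difference -3.54 ± 0.66, edgeR adjusted p = 0.00487), and the others include those of Slc16a4 (-2.14 ± 0.29), SGLT2 (-1.94 ± 0.41), Slc5a8 (-1.59 ± 0.46) and, smallest, GLUT1 (-0.51 ± 0.11). The Slc5a8 call (edgeR adjusted p = 0.0475) was lost without any E18.5 library, E14.5 ENL WT library 2 or E14.5 T1 library 1 or 3, where edgeR adjusted p ran up to 0.117, and with scaling by library size alone (-1.55, edgeR adjusted p = 0.0501). Without E14.5 ENL WT library 1 the differences were -4.40 for Slc5a12 and -2.23 for Slc5a8. The difference of SGLT1 did not pass (log2 difference -2.40 ± 0.73, edgeR adjusted p = 0.0601). At E14.5 the T1 cells held 0.0846, 0.115 and 0.0718 CPM of Slc5a12 and 0.656, 0.401 and 0.546 of Slc5a8. Slc5a12 passed the filter on low counts in this fit only through the E18.5 libraries.

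Whole kidneys with mutant ENL in the stromal lineage also had lower levels of several proximal tubule carriers. In Foxd1-ENL T1, 14 of 41 tested genes fell, 13 carriers and the pseudogene Slc2a4rg-ps, and 1 rose, against 7.53% and 2.65% of all genes, with a median log2 fold change of -0.23. Of the sodium-coupled sugar and polyol carriers 5 of 6 tested fell, and both sodium-coupled monocarboxylate carriers and both tested class II carriers (Slc2a5 and Slc2a9) fell too.

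SGLT2 (Slc5a2) was 25.0, 32.2 and 26.1 CPM in the Foxd1 ENL WT kidneys and 8.51, 11.5 and 7.59 in Foxd1-ENL T1 (log2 fold change -1.59 ± 0.13, edgeR adjusted p = 1.5e-06). Slc5a12 was 43.2, 45.1 and 38.0 CPM and 13.5, 22.9 and 14.8 (log2 fold change -1.30 ± 0.15, edgeR adjusted p = 2.19e-05). Slc5a8 was 118, 126 and 126 CPM and 66.0, 85.5 and 75.2 (log2 fold change -0.71 ± 0.0771, edgeR adjusted p = 1.61e-05). In each, all T1 libraries lay under all controls. SGLT1 (Slc5a1) was 49.7, 54.6 and 52.7 CPM and 48.9, 61.2 and 59.2, with overlapping groups (log2 fold change 0.11 ± 0.0768, edgeR adjusted p = 0.302).

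Slc16a5 was 33.6, 37.6 and 33.6 CPM and 15.8, 16.6 and 17.7 (log2 fold change -1.06 ± 0.0706, edgeR adjusted p = 2.23e-07). The lactate carrier Slc16a7, which did not pass in whole Six2 kidneys, was 49.5, 47.9 and 56.4 CPM and 28.9, 31.3 and 28.9 (log2 fold change -0.79 ± 0.0693, edgeR adjusted p = 2.34e-06). Slc5a3 was 68.8, 61.2 and 66.9 CPM and 43.5, 40.6 and 42.9 (log2 fold change -0.63 ± 0.0597, edgeR adjusted p = 4.21e-06), and Slc5a9 (-1.09 ± 0.12), Slc16a4 (-0.80 ± 0.084), Slc16a12 (-0.81 ± 0.0864) and Slc2a5 (-0.75 ± 0.13) fell as well. GLUT2 (log2 fold change -0.49 ± 0.0948, edgeR adjusted p = 0.00152) and Slc37a4 (log2 fold change -0.51 ± 0.0576, edgeR adjusted p = 2.3e-05) were lower in every T1 library but under the 1.5-fold threshold. The choline carrier Slc5a7 rose from 0.145, 0.153 and 0.147 to 0.297, 0.478 and 0.456 CPM (log2 fold change 1.46 ± 0.42, edgeR adjusted p = 0.0164), a call lost without ENL WT library 1 or 3 or T1 library 2 or 3. Slc2a9, Slc5a10, Slc5a11 and Slc2a4rg-ps passed with folds near 1.5 (-0.61, -0.60, -0.62 and -0.71), and each was lost without T1 library 1. Slc2a9 and Slc2a4rg-ps were also lost without ENL WT library 1, Slc5a11 without ENL WT library 2, Slc5a10 without ENL WT library 2 or 3, and Slc2a9 and Slc5a10 without T1 library 2. Slc5a10 (6.13, 8.71 and 7.90 CPM against 4.47, 4.37 and 6.16) and Slc2a4rg-ps (7.88, 4.86 and 6.59 against 2.91, 4.92 and 3.92) overlapped between the groups.

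The 5 proximal tubule markers fell here too, from a summed 2204 to 2288 CPM in ENL WT to 902.5 to 1184 in Foxd1-ENL T1, none being at 0, while macrophage marker sums overlapped (94.46 to 99.87 CPM and 95.68 to 103.4). Of 5 loop and distal tubule markers 4 fell (863.4 to 959 and 421.1 to 577 CPM) and 3 of 5 nephron progenitor markers rose (256.2 to 277.9 and 390.6 to 491.5 CPM). The ureteric tree sum was lower (639.3 to 764.2 and 414.1 to 468.1 CPM), with 1 marker higher and 1 lower. Their part in the carrier values was not tested. Foxd1-ENL T1 library 1 held 99.08 CPM of the 5 skeletal muscle genes against 3.545 to 21.29 in the other libraries, and without it 10 carriers fell and 1 rose.

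In all, 8 carriers fell in all 3 comparisons that have no library in common (whole Six2 T1, sorted Six2 T1 at E18.5 and whole Foxd1 T1): Slc2a9, Slc5a2, Slc5a8, Slc5a9, Slc5a12, Slc16a4, Slc16a5 and Slc16a12. They were 50% of the carriers that fell in whole Six2 kidneys, 61.5% in sorted Six2 cells and 57.1% in whole Foxd1 kidneys (the pseudogene included). The same shares over all genes that fell were 24.8%, 23.1% and 19.1%. The 8 were 20% of the 40 carriers tested in all 3, where 1.52% of all genes (290 of 19070) fell in all 3. Slc2a9 is the least firm of the 8, since its call in sorted Six2 cells was lost on leaving out any 1 of 5 of the 6 libraries and its Foxd1 call on leaving out any 1 of 3 of the 6. Slc5a7 was the only carrier that rose in all 3, among 0.383% of all genes, and its calls in sorted Six2 cells and in whole Foxd1 kidneys were each lost on leaving out any 1 of 4 of the 6 libraries.

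The signed whole-kidney T1 effect was compared between the Cre drivers in 1 fit of 10 libraries. In it, driver, sequencing table and run cannot be told apart, and sex was not matched between the genotypes of the Six2 libraries. The effect under Foxd1 was higher for 7 of 42 carriers and lower for 0, against 4.82% and 3.55% of all genes. A higher effect was a smaller fall for Slc5a8 (-0.71 under Foxd1, -2.43 under Six2) and for Slc16a4 (-0.80 and -2.92). At an unadjusted p under 0.05 in edgeR, 3 carriers were lower, and DESeq2 called 0 lower and 13 higher. The difference was 1.29 ± 0.14 for SGLT1 (edgeR adjusted p = 0.000102), 1.70 ± 0.16 for Slc5a8 (edgeR adjusted p = 3.07e-05) and 2.09 ± 0.25 for Slc16a4 (edgeR adjusted p = 0.000186).

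SGLT2 gave 2.105 ± 0.55 (edgeR adjusted p = 0.0326), a value that was 0.90 without Six2 ENL WT library 1 and 2.76 without library 2. Its call was lost without either Six2-ENL T1 library (edgeR adjusted p = 0.132 and 0.0731), without Foxd1 ENL WT library 1 or 3, and without Foxd1-ENL T1 library 1 or 2. Slc37a4 (0.52 ± 0.12) and Slc16a13 (0.47 ± 0.12) passed as well. Both were lost without Six2-ENL T1 library 1, and Slc16a13 also without Six2-ENL T1 library 2, Foxd1 ENL WT library 1 or 3 or Foxd1-ENL T1 library 2. Slc16a13 was 22.6 and 20.5 CPM in Six2 ENL WT kidneys and 12.9 and 13.3 with T1, and 26.1, 28.3 and 25.7 and 21.4, 25.2 and 21.8 in the Foxd1 pair. For Slc16a1, which was 73.5, 76.7 and 80.4 CPM in Foxd1 ENL WT and 114, 95.8 and 97.5 in Foxd1-ENL T1, under the 1.5-fold threshold (log2 fold change 0.42 ± 0.0687, edgeR adjusted p = 0.000483), the difference was 0.63 ± 0.12 (edgeR adjusted p = 0.00486). The difference did not pass for GLUT2 (0.47 ± 0.17, edgeR adjusted p = 0.112) or Slc5a12, which passed without Six2 ENL WT library 2 (1.17, edgeR adjusted p = 0.0216) and had the opposite sign without library 1 (-0.20, edgeR adjusted p = 0.705).

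**Figure D4:**
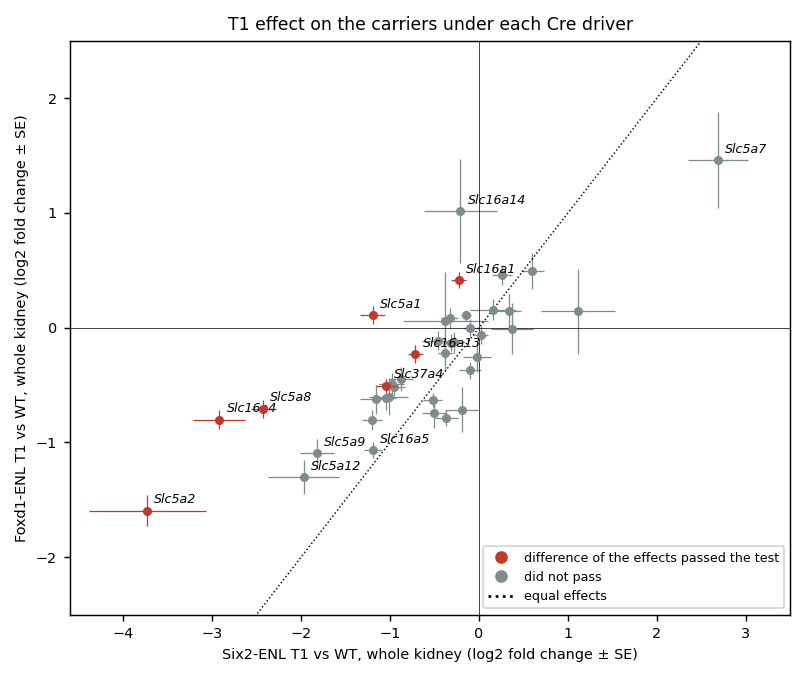
Log2 fold change of the tested carriers in whole kidneys, Six2-ENL T1 against ENL WT (x axis) and Foxd1-ENL T1 against ENL WT (y axis), with SE bars; red points passed the test of the difference between the drivers and the dotted line marks equal effects. The 7 red points lie above the line, with Slc5a2 farthest left (-3.73 and -1.59) and Slc5a1 near 0 on the Foxd1 axis (0.11).

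In sorted Foxd1-lineage cells, where 22 carriers could be tested, 1 rose and 1 fell with T1, against 3.63% and 2.18% of all genes. Slc2a12, an insulin-responsive glucose carrier, was 5.28, 3.21, 6.05 and 4.70 CPM in ENL WT cells and 12.2, 9.31, 11.5 and 15.2 in T1 cells, with no overlap (log2 fold change 1.34 ± 0.24, edgeR adjusted p = 0.000898). Slc2a13, the inositol carrier that rose in Six2 cells, was 18.6, 30.4, 26.6 and 31.5 CPM and 18.1, 15.9, 16.6 and 17.8 (log2 fold change -0.64 ± 0.16, edgeR adjusted p = 0.016), and this call was lost without ENL WT library 2 or 4 or T1 library 2 (edgeR adjusted p up to 0.0612). GLUT1 (Slc2a1), among the most abundant of the carriers per kilobase in these ENL WT cells (21.4 ± 0.255 CPM per kb, mean ± SD, n = 4), did not pass (log2 fold change 0.18 ± 0.0829, edgeR adjusted p = 0.187). Slc5a2 and Slc5a12 were too low to test, at no more than 3.89 CPM. Of 4 tested proximal tubule markers 3 were lower with T1 (summed 90.41 to 223.1 CPM in ENL WT and 48.59 to 74.12 in T1), and 4 of 5 macrophage markers were higher (77.03 to 190.8 and 196.7 to 275 CPM), and their part in the carrier values was not tested.

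**Figure D5:**
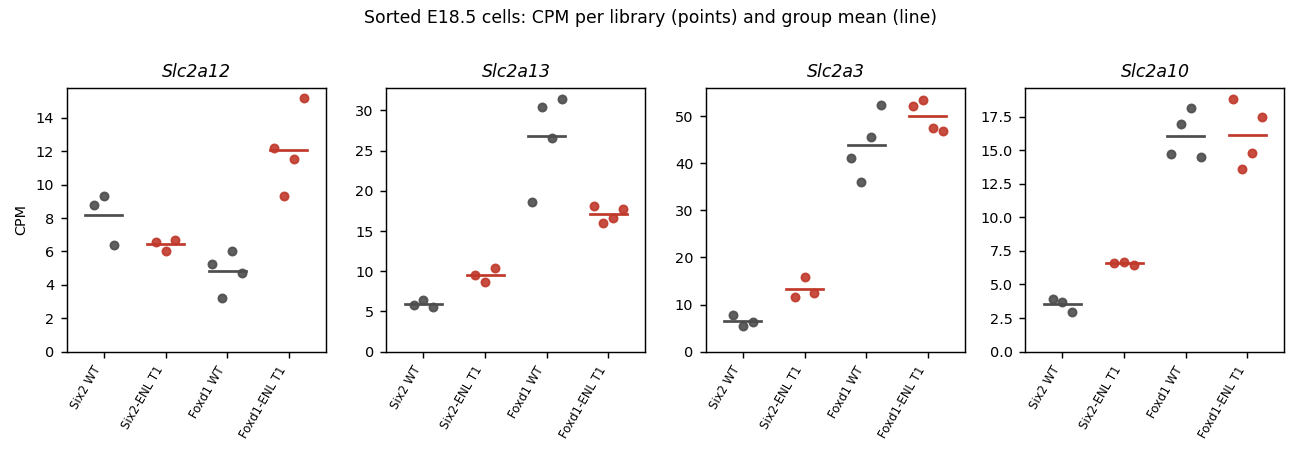
CPM (linear axes from 0) of 4 facilitative sugar carriers in sorted E18.5 cells, 3 libraries per Six2 group and 4 per Foxd1 group as points with the group mean as a line; Six2 and Foxd1 tables were scaled separately, so only genotypes within a lineage compare. Slc2a12 is higher with T1 in Foxd1 cells alone (12.2, 9.31, 11.5 and 15.2 CPM in T1), Slc2a13 is higher with T1 in Six2 cells and lower in Foxd1 cells, and Slc2a3 and Slc2a10 are higher with T1 in Six2 cells.

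The T1 effect in Foxd1 cells minus that in Six2 cells was tested in the 14 sorted E18.5 libraries, where lineage and sequencing table again cannot be told apart. Of 29 carriers tested it was higher for 7 and lower for 4, against 8.25% and 7.63% of all genes. The 29 include Slc2a4rg-ps, Slc2a5, Slc5a2, Slc5a12, Slc16a10, Slc16a12 and Slc37a2, which were too low to test in Foxd1 cells alone. None of these passed. Slc2a12 (log2 difference 1.67 ± 0.29, edgeR adjusted p = 0.000253), Slc5a8 (2.02 ± 0.38), SGLT1 (1.75 ± 0.40) and GLUT1 (0.70 ± 0.11) were higher, with Slc16a6 (0.88 ± 0.25). Slc2a13 (log2 difference -1.34 ± 0.22, edgeR adjusted p = 0.000129), Slc2a10 (-0.91 ± 0.21), Slc2a3 (-0.85 ± 0.20) and the vitamin carrier Slc5a6 (-0.78 ± 0.22) were lower. Slc16a4 (1.20 ± 0.39) and Slc16a3 (0.57 ± 0.19) passed narrowly (edgeR adjusted p = 0.0405 and 0.0418) and each was lost without 10 of the 14 libraries in turn, with edgeR adjusted p up to 0.142 and 0.103, and with scaling by library size alone (edgeR adjusted p = 0.0527 and 0.1). Slc16a6 was lost without Six2 T1 library 2, Foxd1 ENL WT library 4 or Foxd1 T1 library 1 (edgeR adjusted p up to 0.0636). Slc5a2 (log2 difference -0.23 ± 0.75, edgeR adjusted p = 0.887) and Slc5a12 (0.70 ± 0.79, edgeR adjusted p = 0.629) were tested and did not pass. Both entered this fit through the Six2 libraries, being too low to test in Foxd1 cells alone. Slc5a1 and Slc5a8 stood at 4.44, 4.09, 1.61 and 1.81 and 4.72, 3.21, 1.61 and 3.62 CPM in the Foxd1 ENL WT cells. These are 4 to 16 and 4 to 17 reads per library. The log2 fold changes with T1 in Foxd1 cells were 0.23 ± 0.38 and 0.05 ± 0.36 (edgeR adjusted p = 0.772 and 0.951). On so few reads a small fall could not be measured. Slc16a3 was 64.2, 76.3, 68.1 and 53.9 CPM in Foxd1 ENL WT cells and 87.8, 87.1, 86.7 and 86.6 in T1 cells, and 66.7, 42.5 and 44.2 and 42.6, 50.3 and 41.1 in the Six2 pair. Slc16a6 was 7.22, 6.14, 5.64 and 4.34 and 9.23, 5.65, 7.92 and 6.78 CPM in the Foxd1 pair and 21.0, 20.9 and 22.0 and 14.4, 12.2 and 15.6 in the Six2 pair. Slc5a6 was 11.9, 11.1, 8.87 and 13.4 and 7.01, 8.31, 6.12 and 8.08 CPM in the Foxd1 pair and 17.8, 17.2 and 14.2 and 19.1, 18.4 and 16.6 in the Six2 pair.

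The same substrates are handled by 19 further genes listed beside the carriers, among them partner proteins and regulators (Bsg, Emb, Pdzk1ip1, Txnip, Aspscr1), enzymes of glucose, fructose and lactate (Hk1, Hk2, Khk, G6pc, G6pc3, Fbp1, Pck1, Ldha, Ldhb, Ldhd) and the factor Hnf4a. In whole Six2 kidneys 9 of the 19 fell with T1 and 10 with T3, against 4.88% and 5.28% of all genes, and none rose, against 2.88% and 4.34%. Fbp1, the gluconeogenic fructose bisphosphatase, had a log2 fold change of -3.63 ± 0.24 with T1 (edgeR adjusted p = 0.000114), G6pc, the phosphatase that works with Slc37a4, -3.30 ± 0.43, and Pck1 -2.42 ± 0.28. Pdzk1ip1, a partner of SGLT2, had -1.24 ± 0.0715 and Hnf4a -1.46 ± 0.0906, while the hexokinases Hk1 and Hk2 (-0.08 and -0.26) and the MCT chaperone Bsg (-0.17) did not pass.

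In sorted Six2 cells 0 of 17 tested rose and 1 fell at E14.5, against 4.11% and 2.28% of all genes. At E18.5 0 of 19 rose and 7 fell, against 6.14% and 5.54%, among them Fbp1 (-3.38 ± 0.19), G6pc (-3.10 ± 0.38) and Hnf4a (-1.66 ± 0.19). In whole Foxd1 kidneys 4 fell, among them Pdzk1ip1 (-1.26 ± 0.0505), G6pc (-1.28 ± 0.12) and Fbp1 (-1.14 ± 0.0746), and 2 rose, Pck1 (0.83 ± 0.12) and Hk2 (0.60 ± 0.0596), against 7.53% and 2.65% of all genes. The direct comparison of the drivers was higher under Foxd1 for 8 of the 19 and lower for 0, against 4.82% and 3.55% of all genes, with the largest difference for Pck1 (log2 difference 3.23 ± 0.31, edgeR adjusted p = 3.07e-05), then Fbp1 (2.46 ± 0.22) and G6pc (2.00 ± 0.39). In sorted Foxd1 cells 2 of 16 fell, Fbp1 (-1.97 ± 0.35) and Pdzk1ip1 (-1.57 ± 0.25), and Khk, the fructokinase, rose (0.69 ± 0.20), against 2.18% and 3.63% of all genes. During development in ENL WT cells 10 of the 19 rose and 1 fell, against 24.8% and 20.6% of all genes. The test of stage gave 1 higher and 3 lower, against 3.94% and 4.22%, and the test of lineage 5 higher and 0 lower of 17, against 8.25% and 7.63%.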

How the data were processed

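RNA-seq counts per gene were taken from 4 tables the authors deposited, with 32 libraries: whole Six2 kidneys, sorted Six2 cells, whole Foxd1 kidneys and sorted Foxd1 cells. The authors aligned reads to mm10 with HISAT2 and counted them with HTSeq without regard to strand. Reads over exons common to a gene and an overlapping neighbour could thus not be assigned by strand. Whole kidneys were made with a stranded mRNA kit and sorted cells with a full-length amplification kit, so levels are not compared between them. Of 55806 identifiers, 55450 were named from GENCODE vM21.

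Low genes were removed with the filterByExpr function (min.count 10, min.total.count 15). Counts were scaled by TMM factors and tested with the quasi-likelihood test of edgeR 4.0.16 (R 4.3.3) with Benjamini-Hochberg adjustment over all genes tested. The thresholds were 0.05 for the adjusted p with 1.5-fold for genotype, 0.01 with 2-fold for stage in ENL WT cells, and 0.05 alone for interactions. The T1 and T3 whole kidney comparisons were fitted with all 6 Six2 libraries. CPM were computed here from the deposited counts. Promoters came from RefSeq (GRCm38.p6). The test was checked on simulated counts. Alternatives were the exact test of edgeR, DESeq2 1.42.0, other scalings, no filter, no fold threshold, the replicate number as a block, other sets of libraries in the fit, and each library left out in turn. Genes with a value per library were those textbooks place in kidney sugar and monocarboxylate handling, those with the 6 largest changes per direction, and those that passed an interaction. Values of a few genes are not reported here, though they count in the totals, and nor is 1 further promoter motif, which was less frequent in the windows of the carriers than in all windows. The members and lists were chosen with earlier results of these data known.

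Among 33 pairs of replicate libraries the correlation of log CPM was 0.974 to 0.993 and the smallest chi-square per gene was 1.36, so no library was taken as a repeat of another. Deviations of 31 same-numbered pairs of libraries correlated between -0.0791 and 0.0997, so the numbers were not used to pair libraries.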

Additional observations from a re-analysis of the deposited data

Results flagged for a closer look

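In sorted Foxd1-lineage T1 cells, 1 library of 4 stood apart for Slc37a4, the glucose 6-phosphate translocase, at 30.9 CPM among 19.9, 30.9, 21.6 and 21.3. It was the only such library in 44 tests of a gene in a group of 4, and chance gives about 1 in 20.

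The T1 effect in sorted Six2 cells differed between stages (E18.5 minus E14.5, log2) for Slc5a12 (-3.54), Slc16a4 (-2.14), Slc5a2 (-1.94), Slc5a8 (-1.59) and Slc2a1 (-0.51). The first 4 passed as lower with T1 at E18.5, and Slc2a1 stayed under the fold threshold. Slc5a12 passed the filter on low counts in this test only through the E18.5 libraries.

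Between sorted lineages at E18.5 (Foxd1 minus Six2, log2), the effect differed for Slc5a8 (2.02), Slc5a1 (1.75), Slc2a12 (1.67), Slc16a4 (1.20), Slc16a6 (0.88), Slc2a1 (0.70), Slc16a3 (0.575), Slc2a13 (-1.34), Slc2a10 (-0.91), Slc2a3 (-0.85) and Slc5a6 (-0.78). The largest values belong to Slc5a8 and Slc5a1, sodium-coupled carriers of the proximal tubule that were lower with T1 in Six2 cells. Slc5a2 (-0.23 ± 0.75) and Slc5a12 (0.70 ± 0.79), of the same kind and also lower there, did not pass. Both were too low to test in Foxd1 cells alone and entered this test through the Six2 libraries. No contrast with Slc5a8 and Slc5a1 can be drawn from them.

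Between Cre drivers in whole kidneys (Foxd1 minus Six2, log2), it differed for Slc5a2 (2.105), Slc16a4 (2.09), Slc5a8 (1.70), Slc5a1 (1.29), Slc16a1 (0.63), Slc37a4 (0.52) and Slc16a13 (0.47). Slc5a1 and Slc5a8 differed between lineages and between drivers, in comparisons without a shared library, and kept both calls in each setting tried. In sorted Foxd1 ENL WT cells they had only 4 to 16 and 4 to 17 reads per library. Their log2 fold changes with T1 in sorted Foxd1 cells were 0.23 ± 0.38 (Slc5a1) and 0.05 ± 0.36 (Slc5a8), and neither passed. On so few reads a small fall could not be measured. Slc16a4 differed between lineages and between drivers as well. Its lineage call was lost without 10 of the 14 libraries in turn and with scaling by library size alone.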

How the results depend on the processing

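The number of carriers called stayed within 1.5 times the reported one except as follows, and the cause was not tested. Of T3 against T1, 3 were called without the filter on low counts (0 with it). Of E14.5 cells, where 3 were called, the exact test and DESeq2 gave 6, no filter 5, no fold threshold 9 and a fit of all 12 sorted Six2 libraries 7. Whole Foxd1 kidneys gave 25 without the fold threshold, against 15. The comparison of Cre drivers gave 13 with DESeq2 and 14 without the filter, against 7. Leaving out each library in turn gave 1 to 3 carriers in sorted Foxd1 cells, where 2 were called (1 without ENL WT library 2 or 4 or T1 library 2), and 4 to 13 for the Cre drivers (4 without Six2-ENL T1 library 1, 13 without Six2 ENL WT library 2).

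Over 6437 pairs of a carrier and a setting, 6183 stayed on their side of the threshold, 129 lost and 125 gained a call, and 0 called values changed sign. Over all genes, the counts moved without the fold threshold (3393 against 1859 for T1 and 4189 against 2303 for T3 in whole Six2 kidneys, 2884 against 1432 and 4603 against 2648 in sorted Six2 cells at E14.5 and E18.5, 1363 against 739 in sorted Foxd1 cells, 6732 against 2051 in whole Foxd1 kidneys). T3 against T1 gave 89 genes with the exact test, 75 with DESeq2, 300 without the filter and 0 to 16 with a library left out, against 1. T1 whole Six2 kidneys gave 1163 and 1207 without T1 library 1 or 2, the stage test 1327 without E18.5 ENL WT library 2 (2059 with it), and the Cre driver test 2883 with DESeq2, 3130 without the filter and 914 to 3266 with a library left out (1910).

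With the replicate number as a block, which the numbers do not warrant as pairing, the carriers called were 18 for T1 and 20 for T3 in whole Six2 kidneys, 0 for T3 against T1, 3 at E14.5 (2 of them the same), 17 at E18.5, 2 in sorted Foxd1 cells, 15 in whole Foxd1 kidneys, 24 for stage in ENL WT cells, 6 for stage by genotype, 10 for lineage and 8 for Cre driver. Depth limits sorted Foxd1 cells, where 22 of the 44 genes fell below the filter.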
